A study of Trichoderma reesei with 9 samples.

Results

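The genes described here were those of *Trichoderma reesei* RUT-C30 whose protein carried a tag of the Transporter Classification Database (TCDB) and no CAZyme tag in the study's annotated lists of differentially expressed genes. This rule gave 210 members among the 9849 genes of the count table. *T. reesei* RUT-C30 is a cellulase-producing strain with a truncated cre1, so that it lacks glucose catabolite repression, and every library came from this strain. Cultures had been grown in malt extract broth, held for a day without carbon and then kept for 7 days in a mineral medium with 1 of 3 substrates. These were 1% (w/v) glucose, 0.45% low melanin necromass and 0.45% high melanin necromass, with 3 libraries each, 9 in all. Both necromass types were freeze-dried mycelium of the ascomycete *Hyaloscypha bicolor*, each a single bulk harvest from a different culture condition, so a property of that harvest other than melanin cannot be told apart from melanin. The glucose cultures also held more substrate by weight than the necromass cultures, and this cannot be told apart from the kind of substrate.

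Transporters decide which compounds a saprotrophic fungus can take up once its secreted enzymes have cut a polymer into sugars, peptides and amino acids. Major facilitator superfamily (MFS) proteins are carriers driven by ion gradients or by the solute's own gradient, and the sugar porters are their best-known fungal branch. ATP-binding cassette (ABC) and P-type proteins use ATP to pump drugs, lipids or ions, mitochondrial carriers exchange metabolites across the inner mitochondrial membrane, and aquaglyceroporins let water and glycerol pass. By TCDB class, 131 members were electrochemical potential-driven transporters (carriers), 32 were primary active transporters, 19 were accessory factors, 15 were channels or pores, 8 were incompletely characterised, 3 were group translocators and 2 were transmembrane electron carriers. The MFS alone held 84 members and its sugar porter branch held 30.

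The TCDB tag was not always that of a carrier. In 39 of the 210 members the protein domain or orthologous-group tag named something other than a membrane transporter. The largest set was 16 proteins made of ankyrin repeats, a protein-binding module that TCDB files under ion channels and their helpers. The others included a cytochrome b5 reductase, aldo/keto reductases, acyl-CoA ligases, WD40-repeat proteins, AAA+ ATPases, an Hsp70 chaperone, a prolyl isomerase and a protein kinase. The remaining 171 members carried no such tag. The files pair no gene names with these IDs, so members are called by protein ID and annotated family.

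The rule used measured values. The 210 members entered because the study's own comparisons had listed them as differing at least 4-fold (a log2 fold change of 2) between a necromass and glucose, 184 of them from the low melanin list and 140 from the high melanin list. The copy of the high melanin list used here was shortened by 756 of its genes and ended at protein ID 75541, so members with a lower ID could enter through the low melanin list only, and transporter genes in neither list are not analysed here. Differences from glucose are therefore given as a description with no test. No member entered through the study's comparison of high with low melanin necromass, which is the comparison tested here. It shares its 6 necromass libraries with the comparisons that chose the members, so it is not free of that choice. Of the members, 70 were in the low melanin list only, in part through the shortening, and 26 in the high melanin list only. Entry through 1 list favours a difference between the necromass types. Of those named below with an ID past the cut, protein ID = 92240 was in the low melanin list only. Protein IDs = 94212, 76497, 96464 and 97853, among others, were in the high melanin list only. Named members with an ID under 75541, such as protein IDs = 38144, 72966, 26687, 73367 and 75459, were in the low melanin list only. Whether the full high melanin list also held them cannot be seen here.

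Library totals were 18074631 to 24635281 counts. CPM are counts per 1000000 of the library size after scaling by trimmed mean of M-values, which puts 3 counts at 0.128 to 0.158 CPM. CPM here come from the deposited estimated counts. They are not corrected for transcript length, so levels are compared between libraries and not between genes. Each value is relative to the mRNA of a whole culture, and fewer expressing cells and less transcript per cell cannot be told apart. All 210 members passed the filter of at least 10 counts in 3 libraries, as did 9312 genes in all. Glucose replicate 1 stood apart from glucose replicates 2 and 3, with a mean chi-square per gene of 323 and 368 against them, where the other pairs of replicates gave 12.2 to 56.6.

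The summed level of the members was 44470 ± 2752 CPM on glucose, 45880 ± 1762 CPM on low melanin and 47810 ± 1768 CPM on high melanin necromass (SD, n = 3 each). Splitting the members by the sign of their difference from glucose separates the sums by construction, and these are given for their size alone. The 124 members that were higher on necromass summed to 2579 ± 1234 CPM on glucose, 40704 ± 2228 on low melanin and 43516 ± 1617 on high melanin necromass. The other 86 members summed to 41890 ± 3951, 5176 ± 514 and 4294 ± 168 CPM. With the thresholds used here (adjusted p < 0.05 and at least 4-fold), 118 members were higher and 65 lower on low melanin necromass, 87.1% of members, where 19.2% of all genes tested were so called (12.0% higher and 7.18% lower). On high melanin necromass 114 were higher and 79 lower, 91.9% of members against 22.3% of all genes (13.5% higher and 8.80% lower). The glucose and necromass libraries did not overlap in 205 members on low melanin and 206 on high melanin necromass, as in 75.6% and 76.2% of all genes. Nothing is read from these shares, since the members were chosen on the same contrasts. Both contrasts share the 3 glucose libraries. The median log2 difference from glucose was 2.26 on low melanin and 2.37 on high melanin necromass, where the median over all genes was 0.01 and 0.02.

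**Figure D1:**
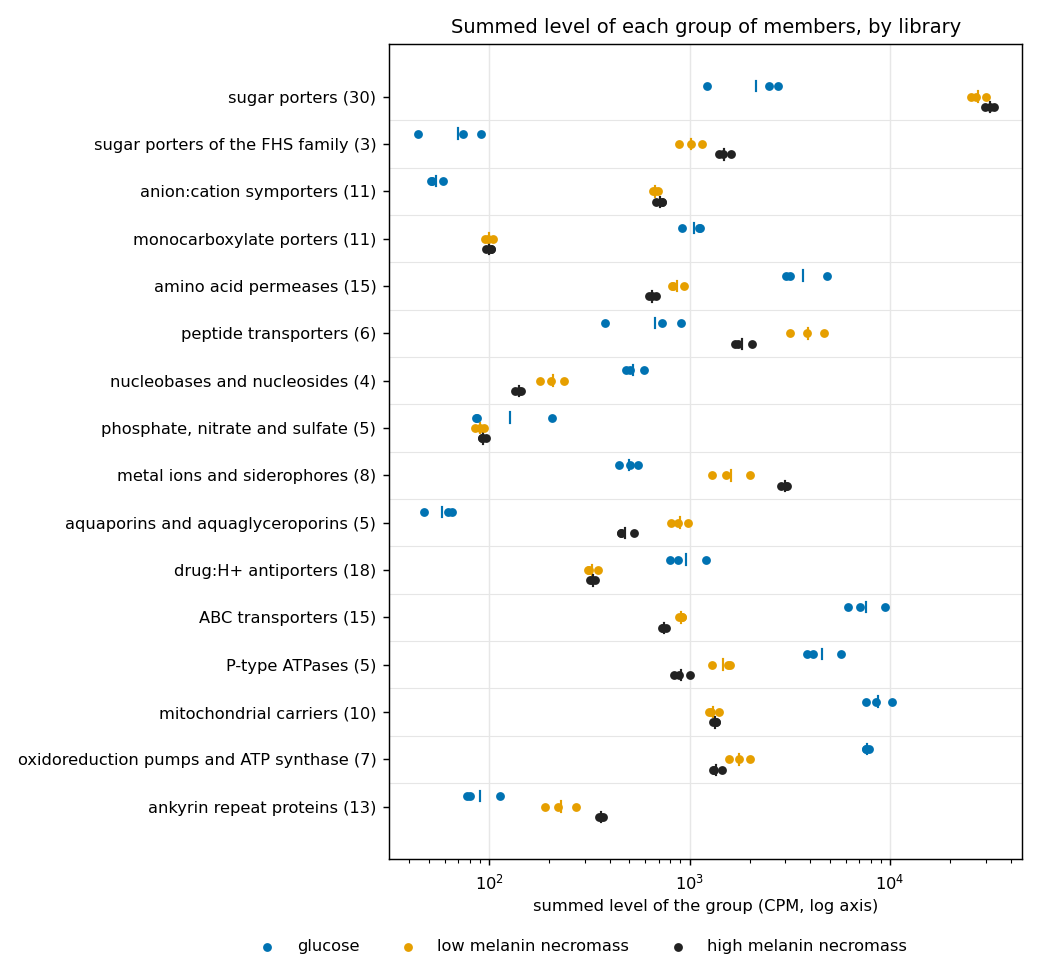
Summed level in CPM (log axis) of 16 groups of members, with the number of members in brackets. Each point is 1 library, the vertical ticks are group means (n = 3), and colours are the substrates; sugar porters, peptide transporters and aquaporins lie higher on both necromass types than on glucose, and mitochondrial carriers, oxidoreduction pumps with ATP synthase, and monocarboxylate porters lie lower.

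Sugar porters had the highest summed CPM of the groups on necromass, and 1 gene carried most of it. Of the 30, 23 were at least 4-fold higher and 5 lower on low melanin necromass, and 24 were higher and 5 lower on high melanin necromass. Their summed level was 2155 ± 823 CPM on glucose, 27446 ± 2526 on low melanin and 31392 ± 1538 on high melanin necromass. This was protein ID = 109243, with 147, 1491 and 1727 CPM in the glucose libraries, 23029, 25978 and 21614 CPM on low melanin and 26679, 24840 and 27798 CPM on high melanin necromass. It was the most abundant member by mean CPM and took 2.22% to 2.60% of all counts in the necromass libraries, against 0.0165% to 0.171% on glucose. Its glucose values differed more than 10-fold among themselves, with replicate 1 low, yet all lay far below every necromass library. Its log2 difference from glucose was 4.39 (SE 0.75) on low melanin and 4.56 (SE 0.75) on high melanin necromass. Without this gene the other 29 sugar porters still summed to 1033 ± 37.6 CPM on glucose, 3906 ± 301 on low melanin and 4953 ± 137 on high melanin necromass.

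The sugar porters differed widely among themselves. The largest difference from glucose belonged to protein ID = 91594, which gave 1.91, 2.35 and 1.18 CPM on glucose, 570, 534 and 573 on low melanin and 640, 588 and 671 on high melanin necromass, a fold of 308 and 348. Protein ID = 79592 was close to the detection limit on glucose, with 5, 3 and 3 counts, and reached 19.98, 30.1 and 19.4 CPM on low melanin and 65.1, 96.7 and 77.6 CPM on high melanin necromass. In the opposite direction, protein ID = 76562 gave 166, 264 and 209 CPM on glucose against 15.7, 12.6 and 19.0 on low melanin and 10.6, 12.2 and 10.9 on high melanin necromass, a fold of 13.5 and 18.9 lower. So the family held both a large necromass-high set and a small glucose-high set. The 3 members of the fucose:H+ symporter (FHS) family, a separate MFS branch of sugar carriers, were all higher on both necromass types and summed to 69.7 ± 23.7, 1017 ± 136 and 1491 ± 107 CPM. The most abundant of them, protein ID = 69330, gave 18.8, 33.9 and 48.7 CPM on glucose, 733, 885 and 605 on low melanin and 1275, 1139 and 1076 on high melanin necromass.

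**Figure D2:**
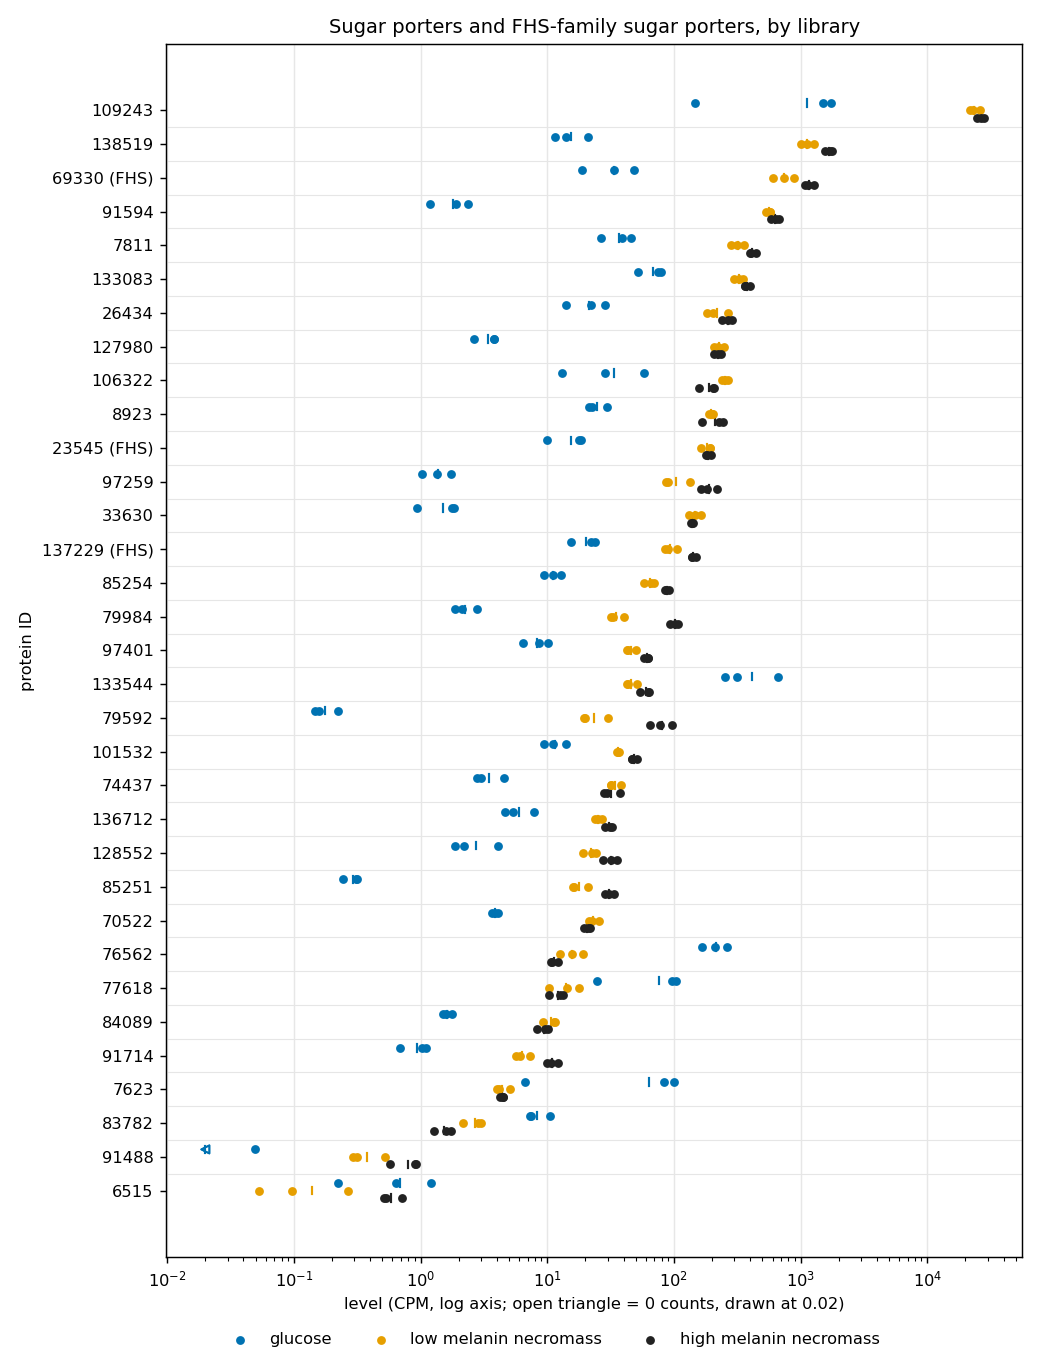
Level in CPM (log axis) of the 30 sugar porters and the 3 FHS-family sugar porters in each library, ordered by their mean on necromass. Colours are the substrates, ticks are means (n = 3) and open triangles mark 0 counts; protein ID = 109243 is far above the rest on necromass, and a few members, among them protein ID = 76562, are highest on glucose.

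Oligopeptide transporters of the OPT family, which import small peptides or metal chelates, were all higher on necromass. Its 4 members summed to 32.9 CPM on glucose, 2241 on low melanin and 1138 on high melanin necromass. Protein ID = 94554 gave 5.47, 16.8 and 16.9 CPM on glucose, 1087, 946 and 1219 on low melanin and 618, 527 and 707 on high melanin necromass. Proton-driven peptide carriers of the other family did not share 1 direction. Of its 2 members, the necromass-high gene had log2 differences of 3.20 on low melanin and 1.93 on high melanin necromass. Only the low melanin value was past the thresholds, and the glucose libraries of this gene differed more than 4-fold. Protein ID = 138633, a member of that family, was 122-fold lower on low melanin and 183-fold lower on high melanin necromass, with 341, 474 and 557 CPM on glucose and 2.17 to 4.89 CPM in the 6 necromass libraries.

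Amino acid permeases, which bring amino acids in with protons, were split. Of 15 members, 8 were at least 4-fold higher and 6 lower on low melanin necromass, and 7 were higher and 6 lower on high melanin necromass, while their summed level was lower on necromass (3689 ± 1015 CPM on glucose, 862 ± 67.1 and 653 ± 25.9 CPM on low and high melanin necromass). Protein ID = 72410 went from 0.534, 0.575 and 0.738 CPM on glucose to 216, 231 and 246 on low melanin and 180, 197 and 187 on high melanin necromass. Protein ID = 139450 followed it from 3 to 9 counts on glucose to 91.7 to 108 CPM on low melanin and 67.7 to 76.5 CPM on high melanin necromass. The 3 permeases of the amino acid/auxin permease family went the other way and summed to 2996 CPM on glucose against 37.2 and 31.1 CPM on low and high melanin necromass. The lowest of these on necromass, protein ID = 104258, gave 1265, 352 and 224 CPM on glucose, 1.74 to 2.33 on low melanin and 0.0888 to 1.57 on high melanin necromass. Its glucose replicate 1 was more than 3-fold above the other glucose libraries, and all 6 necromass libraries lay far below each of them.

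Carriers of organic anions fell into opposite sets. All 11 anion:cation symporters, an MFS branch that takes up vitamins, allantoate and similar anions in yeast, were higher on both necromass types by their fold, 10 of them past the thresholds on low melanin and 11 on high melanin necromass. They summed to 54.2 ± 4.34 CPM on glucose, 676 ± 17.1 on low melanin and 714 ± 26.8 on high melanin necromass. Protein ID = 90719 gave 1.156, 1.67 and 1.38 CPM on glucose, 161, 159 and 155 on low melanin and 170, 205 and 189 on high melanin necromass. Monocarboxylate porters, relatives of the animal lactate and pyruvate carriers, showed the reverse, with 10 of 11 at least 4-fold lower on each necromass type, 9 of them on both, and 0 past the thresholds in the other direction. Their sum was 1056 ± 117 CPM on glucose, 99.8 ± 4.28 on low melanin and 100.4 ± 3.05 on high melanin necromass. Protein ID = 36469 gave 99.6, 75.1 and 41.8 CPM on glucose and 1 to 8 counts in each necromass library.

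Carriers of nucleobases, phosphate, nitrate and sulfate were few. Of 4 nucleobase and nucleoside carriers, protein ID = 108217 was 4.43 ± 1.36 CPM on glucose, 35.3 ± 3.10 on low melanin and 33.6 ± 2.10 on high melanin necromass, and protein ID = 143141 was 111 ± 27.9, 19.0 ± 0.435 and 10.2 ± 1.18 CPM. Of 5 phosphate, nitrate and sulfate carriers, 4 were higher and 1 lower on both necromass types. Protein ID = 98410, the one that was lower, gave 195.7, 81.2 and 78.2 CPM on glucose and 0.514 to 1.21 CPM in the necromass libraries. The gene annotated as a nitrate/nitrite porter, protein ID = 93519, was 1.77 ± 0.262 CPM on glucose, 18.1 ± 2.39 on low melanin and 18.7 ± 0.921 on high melanin necromass.

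Among genes for metal and siderophore uptake, the 2 ferric reductases had the largest differences from glucose. They summed to 1.61 CPM on glucose, 353 on low melanin and 1929 on high melanin necromass, against 499, 1607 and 2979 CPM for the whole group. These membrane enzymes reduce ferric iron outside the cell so that it can be taken up, and TCDB files them as transmembrane electron carriers. Protein ID = 38144 gave 1.82, 1.51 and 0.788 CPM on glucose, 232, 580 and 160 on low melanin and 1961, 1712 and 1984 on high melanin necromass. Its relative, protein ID = 129565, gave 3 to 6 counts on glucose, 21.2, 44.4 and 22.6 CPM on low melanin and 40.6, 41.9 and 48.2 CPM on high melanin necromass. In both genes low melanin replicate 2 was the highest of its group. Of the 8 members in this group, 6 were higher and 2 lower on low melanin necromass, and 5 were higher and 2 lower on high melanin necromass. Protein ID = 26112, whose iron permease domain places it with the high-affinity iron uptake system of yeast, was lower on both, with 133, 56.2 and 50.5 CPM on glucose and 3.29 to 5.82 CPM on necromass.

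Aquaporins and aquaglyceroporins were higher on necromass in all 5 members. They summed to 58.5 ± 9.87 CPM on glucose, 892 ± 86.9 on low melanin and 478 ± 42.7 on high melanin necromass. Protein ID = 102402 gave 4.94, 6.53 and 7.73 CPM on glucose, 295, 286 and 344 on low melanin and 234, 282 and 218 on high melanin necromass, a fold of 48.2 and 38.3.

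The P-type ATPases held opposite sets too. Protein ID = 108381, annotated as the plasma membrane H+-ATPase, the pump that builds the proton gradient on which most of the carriers above depend, gave 5567, 3801 and 4063 CPM on glucose, 260, 233 and 274 on low melanin and 229, 206 and 259 on high melanin necromass, a fold of 17.5 and 19.4 lower. It was chosen after its values were seen. The 3 members of TCDB subfamily 3.A.3.9 were higher on low melanin necromass. Protein ID = 142734 was 20.6 ± 6.06 CPM on glucose, 983 ± 100 on low melanin and 516 ± 104 on high melanin necromass. Protein ID = 83372 was 1.56 ± 0.528 CPM on glucose, 115 ± 7.88 on low melanin and 153 ± 5.81 on high melanin necromass.

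Efflux systems were of mixed direction, and their sums were ruled by a few glucose-high genes. The 15 ABC transporters summed to 7552 ± 1667 CPM on glucose, 905 ± 16.4 on low melanin and 744 ± 19.8 on high melanin necromass. Protein ID = 142607, of the pleiotropic drug resistance branch of ABC pumps, was most of this, with 4189, 7095 and 5209 CPM on glucose, 31.3, 27.7 and 28.8 on low melanin and 13.1, 11.7 and 20.3 on high melanin necromass, a fold of 188 and 366 lower. Another member of the same branch, protein ID = 75459, was higher on necromass, at 0.952 ± 0.639 CPM on glucose, 31.6 ± 6.39 on low melanin and 14.0 ± 2.73 on high melanin necromass. Of 18 drug:H+ antiporters, MFS exporters of toxic compounds, 10 were higher and 4 lower on low melanin necromass and 8 higher and 8 lower on high melanin necromass. Protein ID = 90255 went from 0.128 ± 0.0690 CPM on glucose to 16.3 ± 2.55 and 19.5 ± 3.88 CPM, and protein ID = 35694 from 150 ± 62.1 CPM to 0.768 ± 0.183 and 0.487 ± 0.348 CPM.

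Most members annotated as mitochondrial carriers or as subunits of the respiratory chain or ATP synthase were lower on necromass. Of 10 mitochondrial carriers, 8 were at least 4-fold lower and 0 higher on low melanin necromass, and 8 were lower and 1 higher on high melanin necromass. They took 0.749% to 1.139% of all counts on glucose and 0.125% to 0.144% in the necromass libraries. The ADP/ATP carrier, protein ID = 99772, which exports mitochondrial ATP, gave 4947, 3773 and 3529 CPM on glucose, 629, 627 and 704 on low melanin and 693, 652 and 719 on high melanin necromass. The phosphate carrier, protein ID = 137230, gave 1137, 816 and 729 CPM on glucose and 49.5 to 75.7 CPM in the 6 necromass libraries, a fold of 13.7 and 17.1 lower. The exception, protein ID = 138553, annotated as a carrier with a calcium-binding domain, was 39.4 ± 6.01 CPM on glucose, 114 ± 18.3 on low melanin and 166 ± 19.8 on high melanin necromass. TCDB files 7 members as oxidoreduction-driven pumps or ATP synthase, of which protein ID = 112059 carries the tags of a cytochrome b5 reductase. The other 6, subunits of the respiratory chain or the ATP synthase, had a lower level on both necromass types, 1 of them past the 4-fold threshold on low melanin and 6 on high melanin necromass. These 6 summed to 7122 ± 129 CPM on glucose, 1663 ± 200.1 on low melanin and 1285 ± 66.5 on high melanin necromass. Cytochrome c, protein ID = 26219, which carries electrons to the last complex of the chain, was 1582 ± 56.9, 116 ± 23.5 and 78.7 ± 6.18 CPM.

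Among members whose tags named no transporter, the acyl-CoA ligase protein ID = 87569 and the AAA+ ATPase protein ID = 45640 had some of the largest differences from glucose. Protein ID = 87569 gave 3177, 954 and 900.1 CPM on glucose, 5.73, 5.95 and 5.57 on low melanin and 0.0428, 0.577 and 2.84 on high melanin necromass. Protein ID = 45640 gave 3 to 7 counts on glucose, 133, 146 and 129 CPM on low melanin and 166, 173 and 179 CPM on high melanin necromass. Ankyrin repeat proteins were mostly higher on necromass, 11 of 13 on both types, though at low levels that summed to 90.3 ± 20.1 CPM on glucose, 228 ± 41.6 on low melanin and 362 ± 9.90 on high melanin necromass. Protein ID = 88833 had 0 counts in all 3 glucose libraries, which allows up to 3 counts in each, and 22, 30 and 18 counts on low melanin and 85, 86 and 72 counts on high melanin necromass. Against the largest per-library floor it was at least 7.17-fold higher on low melanin and, on high melanin necromass, at least 23.6-fold higher.

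Some of the largest folds rest on the low end of the counts. Among genes of at least 1000 CPM on low or high melanin necromass, the 10 with the lowest glucose share held 0.295% and 0.182% of their necromass level in the glucose libraries. In 9 members the glucose level was within 2 times such a share of the necromass level, among them protein IDs = 38144, 72410, 139450, 45640 and 91594. The same held for 8 glucose-high members on low melanin and 7 on high melanin necromass, among them protein IDs = 142607, 87569, 104258 and 36469. Whether those reads came from the library itself was not tested.

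By the larger of the 2 log2 differences from glucose computed here, 3 members lay nearest the 4-fold line. Entry itself rested on the study's lists and not on these values. Protein ID = 96464, the Rieske subunit of respiratory complex III, had a log2 difference of -1.63 on low melanin and -2.0005 on high melanin necromass. Protein ID = 138235, an ABC transporter of the multidrug resistance-associated type, had -1.75 and -2.01, and protein ID = 97853, a ribosomal protein L1 homologue, had -1.65 and -2.02. Genes just outside the study's lists carried no annotation here and are not analysed here.

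High melanin necromass was then compared with low melanin necromass, which asks whether melanin content goes with transporter expression when both substrates are fungal necromass. Most members did not pass the test, and those that did went both ways. By the quasi-likelihood test of edgeR, adjusted over all genes after Benjamini and Hochberg, 41 of 210 members (19.5%) differed at an adjusted p under 0.05, against 9.19% of the 9312 genes tested. Of these, 20 were higher on high melanin necromass (5.26% of all genes were) and 21 lower (3.93% of all genes were). The median log2 difference of the members was -0.07, and that of all genes was -0.01. In 122 members the 3 low melanin and the 3 high melanin libraries did not overlap, where the same held for 48.7% of all genes. Only 5 members were also at least 4-fold apart, 2.38% against 0.870% of all genes. Nothing is read from these larger shares, since entry through 1 list favours such a difference. Among the members with no non-transporter tag, 32 of 171 passed the test.

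**Figure D3:**
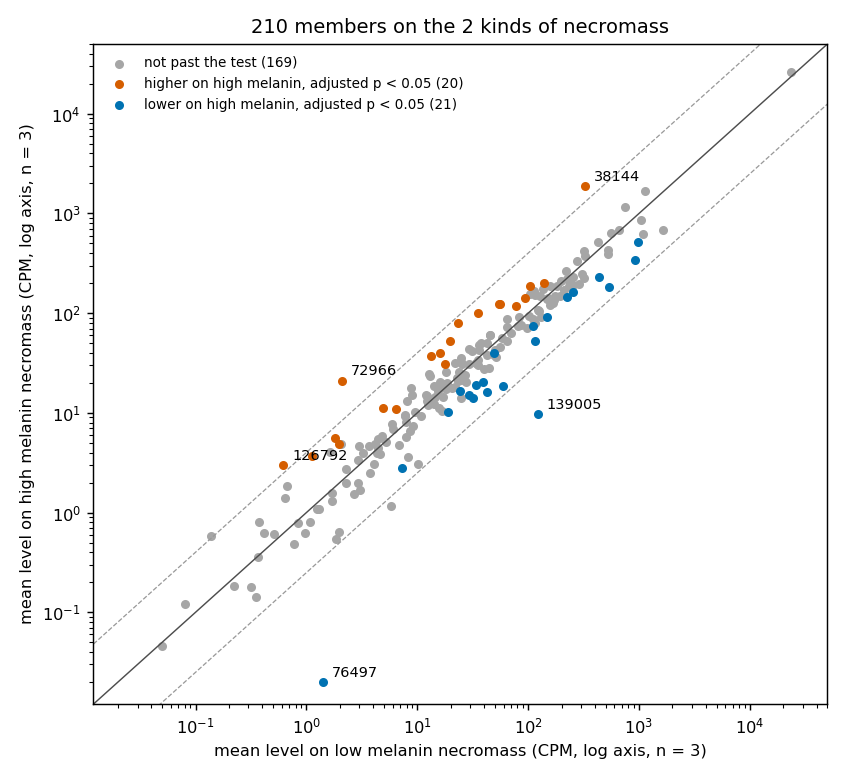
Mean level of each of the 210 members on low melanin (x axis) and high melanin necromass (y axis), both in CPM on log axes (n = 3 each), with a mean of 0 drawn at 0.02. The solid line marks equal levels, the dashed lines 4-fold differences, and colours the 20 members higher and 21 lower on high melanin necromass at an adjusted p under 0.05; the 5 members with printed IDs lie outside or near the dashed lines and passed both thresholds.

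The count of 41 depended on single libraries. It was 95 without glucose replicate 1 and 16 without low melanin replicate 1 and also without low melanin replicate 3. Leaving out high melanin replicates 1, 2 and 3 gave 16, 21 and 23. With each of the 9 libraries left out in turn, 14 of the 41 passed every time, and none of the 41 changed sign under any of the alternatives run.

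Of the 30 sugar porters 5 passed the test, all of them higher on high melanin necromass (5.26% of all genes were). Protein ID = 79984 gave 32.8, 40.7 and 31.7 CPM on low melanin and 92.8, 108 and 103 CPM on high melanin necromass, and on glucose it had been 2.13, 2.77 and 1.87 CPM. The groups did not overlap, and the log2 difference was 1.53 (SE 0.14, adjusted p = 0.000876 by edgeR's quasi-likelihood test). Protein ID = 79592, whose values are given above, differed by 1.78 (SE 0.20, adjusted p = 0.00198). The abundant protein ID = 109243 overlapped between the necromass types, and its difference of 0.17 (SE 0.65) did not pass the test (adjusted p = 0.897, 0.499 to 0.963 over the alternatives). With an SE of this size the levels cannot be called alike. The FHS-family protein ID = 137229 was 93.6 ± 11.2 CPM on low melanin and 142 ± 5.64 on high melanin necromass, a log2 difference of 0.60 (SE 0.16, adjusted p = 0.0441 by edgeR, 0.00142 to 0.194 over the alternatives).

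Peptide transporters held both directions. Protein ID = 26687 of the OPT family gave 850, 748 and 1149 CPM on low melanin and 289, 357 and 366 CPM on high melanin necromass, where glucose had given 14.5, 14.7 and 15.4. It was lower on high melanin necromass by a log2 difference of -1.44 (SE 0.17, adjusted p = 0.00258 by edgeR's quasi-likelihood test). Its family member protein ID = 128837 did the opposite, with 15.8, 17.4 and 14.4 CPM on low melanin and 37.8, 34.1 and 47.8 CPM on high melanin necromass (log2 difference 1.33, SE 0.21, adjusted p = 0.00591). Both were higher on either necromass than on glucose, so the members of the family that shared a direction against glucose did not share one between the necromass types. Another OPT gene, protein ID = 104377, was lower on high melanin necromass (log2 difference -0.65, SE 0.17, adjusted p = 0.0437, 0.00304 to 0.174 over the alternatives).

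Among the anion:cation symporters protein ID = 84399 gave 52.8, 62.3 and 47.9 CPM on low melanin and 123, 129 and 119 CPM on high melanin necromass. All 3 high melanin libraries lay above all low melanin ones, with a log2 difference of 1.19 (SE 0.11, adjusted p = 0.000876 by edgeR's quasi-likelihood test). Protein ID = 73367 of the same branch was 4.86 ± 0.622 CPM on low melanin and 11.2 ± 1.84 on high melanin necromass (log2 difference 1.2028, SE 0.27, adjusted p = 0.0255, up to 0.135 over the alternatives).

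The ferric reductase gene protein ID = 38144 had the largest difference in CPM between the necromass types among members that passed the test, at 324 ± 225 on low melanin and 1886 ± 151 on high melanin necromass. The log2 difference was 2.54 (SE 0.44, adjusted p = 0.00885 by edgeR's quasi-likelihood test). The 3 low melanin libraries ranged from 160 to 580 CPM, all below the lowest high melanin library. Without low melanin replicate 1 the adjusted p was 0.0515, and without low melanin replicate 2 the log2 difference was 3.26. Its relative protein ID = 129565 did not pass the test, with a log2 difference of 0.57 (SE 0.27, adjusted p = 0.217).

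The smallest p-value among the members belonged to a P-type ATPase of TCDB subfamily 3.A.3.9, which was lower on high melanin necromass. Protein ID = 139005 gave 135, 80.4 and 149 CPM on low melanin and 9.81, 8.44 and 10.9987 CPM on high melanin necromass. On glucose it was 7.65, 3.81 and 5.07 CPM, so its high level was seen on low melanin necromass alone of the 3 substrates. On high melanin necromass it was less than 4-fold from glucose, so its low melanin values let it enter, and the test uses them again. The log2 difference between the necromass types was -3.64 (SE 0.29, adjusted p = 0.000556 by edgeR's quasi-likelihood test, and at most 0.00785 over the alternatives). The related protein ID = 142734 was also lower on high melanin necromass (log2 difference -0.93, SE 0.22, adjusted p = 0.0317, up to 0.138 over the alternatives), while protein ID = 83372, with the same TCDB number as protein ID = 139005, had 0.41 (SE 0.15, adjusted p = 0.121).

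The aquaglyceroporin protein ID = 92240 gave 538, 476 and 601 CPM on low melanin, 170, 199 and 177 CPM on high melanin necromass and 37.3, 49.2 and 49.96 CPM on glucose. The 3 substrates did not overlap, and the difference between the necromass types was -1.57 on the log2 scale (SE 0.15, adjusted p = 0.000876 by edgeR's quasi-likelihood test). Protein ID = 102402 of the same family was at -0.33 (SE 0.16, adjusted p = 0.236).

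The drug:H+ antiporters and P-type ATPases that passed the test were all lower on high melanin necromass. They were 2 of 18 and 2 of 5 members, where 3.93% of all genes were lower. Nothing is read from this direction, since entry through 1 list favours such a difference. The drug:H+ antiporter protein ID = 94212 gave 31.2, 38.97 and 46.6 CPM on low melanin and 19.9, 21.1 and 19.9 CPM on high melanin necromass, below 96.5 to 119 CPM on glucose (log2 difference -0.94, SE 0.15, adjusted p = 0.00646 by edgeR). Of 15 ABC transporters, 3 were lower and 1 higher on high melanin necromass, as were 3.93% and 5.26% of all genes. Protein ID = 142607 had a log2 difference of -0.96 (SE 0.25, adjusted p = 0.0457) and protein ID = 75459 of -1.17 (SE 0.31, adjusted p = 0.0434). Both lost the call in some alternatives, where their adjusted p reached 0.178 and 0.158.

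The monocarboxylate porter protein ID = 76497 was not detected on high melanin necromass. It had 18, 31 and 39 counts on low melanin necromass, 9, 15 and 33 counts on glucose and 0 counts in all 3 high melanin libraries, which allows up to 3 counts in each. Against the largest per-library floor it was at least 9.25-fold higher on low melanin than on high melanin necromass (adjusted p = 0.00793 by edgeR's quasi-likelihood test). No other monocarboxylate porter passed the test.

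Of the 10 mitochondrial carriers, 0 passed edgeR's test between the necromass types, 2 had an unadjusted p under 0.05 and 1 passed with DESeq2, and their median log2 difference was 0.03. The 6 respiratory chain and ATP synthase subunits had a lower mean on high melanin necromass, and their median log2 difference was -0.41. Against glucose, 1 of them was past the 4-fold threshold on low melanin and 6 on high melanin necromass. Entry through the high melanin list only, as for protein ID = 105396, favours this direction, so nothing is read from it. Their libraries did not overlap between the necromass types, as in 48.7% of all genes. Of these 6 subunits, 0 passed edgeR's test, 4 had an unadjusted p under 0.05 and 4 passed with DESeq2. Over all 9312 genes tested, 2389 had an unadjusted p under 0.05 by edgeR in this comparison, and 15.3% passed with DESeq2. Cytochrome c, protein ID = 26219, had -0.56 (SE 0.16, adjusted p = 0.0563 by edgeR).

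Of the proteins with non-transporter tags, 9 of 39 passed the test, 7 of them higher on high melanin necromass, where 9.19% of all genes passed. Protein ID = 72966, a prolyl isomerase of the FKBP type, gave 0.894, 4.34 and 1.06 CPM on low melanin and 24.1, 18.9 and 19.8 CPM on high melanin necromass (log2 difference 3.29, SE 0.52, adjusted p = 0.00614 by edgeR's quasi-likelihood test). Low melanin replicate 2 was again the highest of its group. The kinase-domain protein ID = 126792 gave 14, 12 and 12 counts on low melanin and 58, 65 and 71 counts on high melanin necromass (log2 difference 2.27, SE 0.29, adjusted p = 0.00358). Of the 13 ankyrin repeat proteins in the accessory class, 4 were higher on high melanin necromass (5.26% of all genes were). The median log2 difference of the 13 was 0.57. Protein ID = 88833 was among them at 1.71 (SE 0.25, adjusted p = 0.00792).

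**Figure D4:**
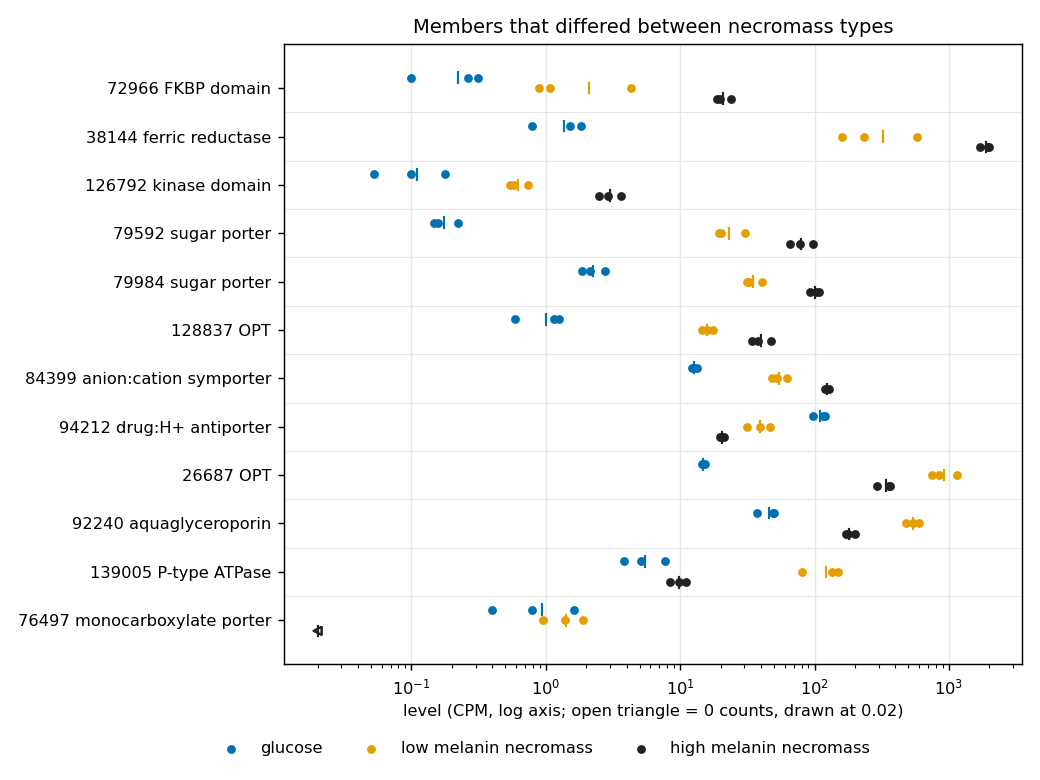
Level in CPM (log axis) in each library of the 12 members that were called between the necromass types or had one of the 10 smallest p-values, ordered by log2 difference. Colours are the substrates, ticks are means (n = 3) and open triangles mark 0 counts; protein ID = 139005 is high on low melanin necromass alone, protein ID = 76497 is at 0 counts on high melanin necromass, and the low melanin points of protein IDs = 38144 and 72966 are spread out.

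Replicate spread among the members was largest on glucose. With 0.5 CPM added to each value, the highest and lowest glucose library differed more than 4-fold in 10 members, and glucose replicate 1 was the farthest from the median in all 10. These included protein IDs = 109243, 104258, 26756 and 79175. On each necromass type 1 member did so. Over all genes tested such spread was seen in 3.00% on glucose, 0.043% on low melanin and 0.0537% on high melanin necromass.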

How the data were processed

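Poly(A) RNA of 9 cultures was sequenced as paired-end reads. Per the study's methods, the authors quantified reads with kallisto 0.48.0 against the RUT-C30 transcripts and tested genes with DESeq2 1.42.0. The deposited table holds these estimated counts as whole numbers per gene, with no normalization, and was used as such. The authors' columns of fold changes and p-values were not used. The cultures are described as independent biological replicates. Counts were scaled by trimmed mean of M-values to CPM and fitted by edgeR 4.0.16 in R 4.3.3 (quasi-likelihood test, 3 groups in 1 fit, Benjamini-Hochberg adjustment) over the 9312 genes that reached 10 counts in 3 libraries. Genes were called where the adjusted p was under 0.05 with a log2 fold change of 2 or more in size. Precision is limited by 3 libraries a group, and floors of 3 counts cover counting error only. The script was tested on simulated data.

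The members, their grouping and the tests were chosen with earlier results of these data known. Named members are the 2 with the largest and the 1 with the smallest mean log2 difference from glucose in each group (all in groups under 3), those called between necromass types, the 10 smallest p-values there, the 3 highest mean CPM and the 3 whose larger difference from glucose was smallest. Protein IDs = 108381 and 112059 and the list of non-transporter tags were chosen after values were seen. Alternatives were DESeq2 (version 1.42.0), its size factors, no filter, a fit of the 2 groups compared, a replicate block and each library left out. Without gene lengths or an annotation of this strain, no coordinates or sequences are given. No pair of libraries was a duplicate.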

Additional observations from a re-analysis of the deposited data

How the results depend on the processing

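The counts of members called against glucose stayed within 1.5 times under every alternative run. With 1 library left out at a time they were 172 to 185 on low melanin necromass (113 to 118 higher, 59 to 68 lower) and 188 to 194 on high melanin necromass (112 to 117 higher, 73 to 80 lower). Between the necromass types 4 to 7 members were called with 1 library left out; protein ID = 38144 was lost without low melanin replicate 1, and the other 4 were called in each alternative. The number at an adjusted p under 0.05, 41 with edgeR's quasi-likelihood test, moved further: 16 to 95 with 1 library left out (9 to 46 higher, 6 to 49 lower), 66 with DESeq2 (32 higher, 34 lower) and 101 in a fit of the 2 necromass groups alone (49 higher, 52 lower). The share of all genes moved with it, to 15.3% with DESeq2, 31.7% in the fit of 2 groups, 25.6% without glucose replicate 1, 2.77% to 4.15% without a high melanin library, 3.29% and 2.99% without low melanin replicates 1 and 3, and 5.92% with the replicate block. Replicate numbers did not pair the samples, with same-number correlations of -0.168 to 0.0789. With the replicate block 26 members passed, 14 higher and 12 lower, all of them among the 41. Over the 85 named members and the alternatives, 1180 values between necromass types, 67 lost and 84 gained significance and 1029 kept their side of the threshold. The sign turned in some alternative in 6 named members, 0 of which had passed the test. Of the named members' differences from glucose, 32 values on low melanin and 39 on high melanin necromass moved by more than the replicate spread, 61 of these 71 with a glucose library left out. The causes were not tested.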
